A study of Homo sapiens with 12 samples.

Results

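The 9 keratins described here were KRT8, KRT18, KRT19, KRT7, KRT20, KRT23, KRT17, KRT80 and KRT81, chosen by gene name from a table of 34687 genes with 12 columns of signal. HCT116, a human colon cancer cell line, and PANC1, a human pancreatic adenocarcinoma cell line, were treated with 0.05% DMSO, the solvent and control, with ICG-001 at 10 uM or with C646 at 10 uM for 12 or 96 h. ICG-001 binds the co-activator CBP and blocks its contact with β-catenin, and C646 inhibits the acetyltransferase activity of p300 and CBP. The 12 groups were the 12 combinations of line, treatment and time, the labels name no engineered allele, and per the study's methods cells were treated for 96 h from a lower confluency, with passaging and fresh drug. RNA was read on Illumina HumanHT-12 v4 arrays. Each group had 1 column, in which the authors had averaged 2 arrays (3 for ICG-001 at 12 h in PANC1).

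Keratins are the intermediate filament proteins of epithelial cells, and each filament is built from pairs of an acidic type I and a basic type II keratin. KRT8 and KRT18 form the founding pair of simple epithelia such as gut, liver and pancreas, KRT19 and KRT7 are widely used markers of ducts, and KRT20 marks differentiated intestinal epithelium. The filaments are tied to the cell surface through desmosomes and hemidesmosomes by linker proteins. KRT17 is better known from basal and stressed epithelium and KRT81 from the hair shaft, so the name simple and ductal fits these members less well.

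Because a group had a single column, the spread between replicates could not be computed, no test was run, and every difference below is a size with no replicate check. A column's detection limit was the peak of its background signals plus 2.33 SD, which gave 142.9 to 144.0 over the HCT116 columns and 134.7 to 138.0 over the PANC1 columns. Genes under the limit in both columns of a comparison were left out of it, the rest entered it, and the words changed, rose and fell are used for ratios of 1.5-fold or more. Where the dimmer signal was at or under the limit, the limit took its place and the fold is a lower bound. As a gauge of noise near background, log2 ratios of genes under the limit in every column of a line had an SD between 0.0694 and 0.0744 in HCT116 comparisons and between 0.0615 and 0.0747 in PANC1 comparisons. Signals of different genes come from different probes and are not set against each other.

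Some members were well above the limit and others hardly detected. KRT8, KRT18, KRT19 and KRT80 were above it in 6 of 6 columns of both lines. KRT23 was above it in 6 HCT116 columns and 0 PANC1 columns. KRT7 was above it in 4 HCT116 columns, not in its DMSO columns, and KRT81 in 5, and both were above it in 6 PANC1 columns. KRT20 was above it in 1 HCT116 column, that of C646 at 12 h, and KRT17 in 1, that of ICG-001 at 12 h, and neither in PANC1.

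Both lines had duct and colon markers above the limit. Of 7 colon epithelium markers, HCT116 had CDX2, GPA33 and EPCAM above the limit and CDX1, CDH17, VIL1 and LGR5 under it, and PANC1 had 4 above it. Their summed signal was 7647 to 10640 in HCT116 and 1371 to 1741 in PANC1. Of 6 duct markers, which include KRT7 and KRT19, 6 exceeded the limit somewhere in HCT116 and 5 in PANC1. In HCT116 KRT7 exceeded it in drug columns alone, and 4 of the 6 exceeded it in DMSO at 12 or 96 h. The duct sum, which includes KRT19, was at 96 h 13720 in DMSO and 7737 under ICG-001 in PANC1. In HCT116 it was 11400 and 9395. KRT19 alone read 11270 and 5006 in those PANC1 columns and 9243 and 7198 in those HCT116 columns. The lower sums thus follow this member and do not show a fall of the other duct markers. Markers of other cell types were mostly under the limit. Endothelial markers were above it for 0 of 3 genes, immune markers for CD14 alone of 4 and fibroblast markers for COL1A1, with COL3A1 added in PANC1, of 6. The summed signal of the 6 fibroblast markers ranged from 813.2 to 857.5 in HCT116 and from 805.0 to 1052 in PANC1, with COL1A2, DCN, LUM and PDGFRB under the limit. Islet markers were above it for 1 of 4 genes in each line. Acinar markers were above it for 4 of 6 genes in HCT116 and 1 in PANC1. Their summed signal in HCT116 at 12 and 96 h was 1174 and 1194 in DMSO, 1605 and 2045 under ICG-001, and 1164 and 1359 under C646, with CPA1 and PNLIP under the limit, and PRSS3, a trypsinogen, rose with ICG-001 at both times. The sum was thus higher with ICG-001 than in DMSO, as were KRT7, KRT80 and KRT81 described next. From 12 to 96 h with ICG-001 the sum went up, while the signals of those keratins went down. Any part of this sum in the keratin signals was not tested. In PANC1 that sum was 723.4 to 748.5, and COL1A1 rose with C646 at 96 h.

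**Figure D1:**
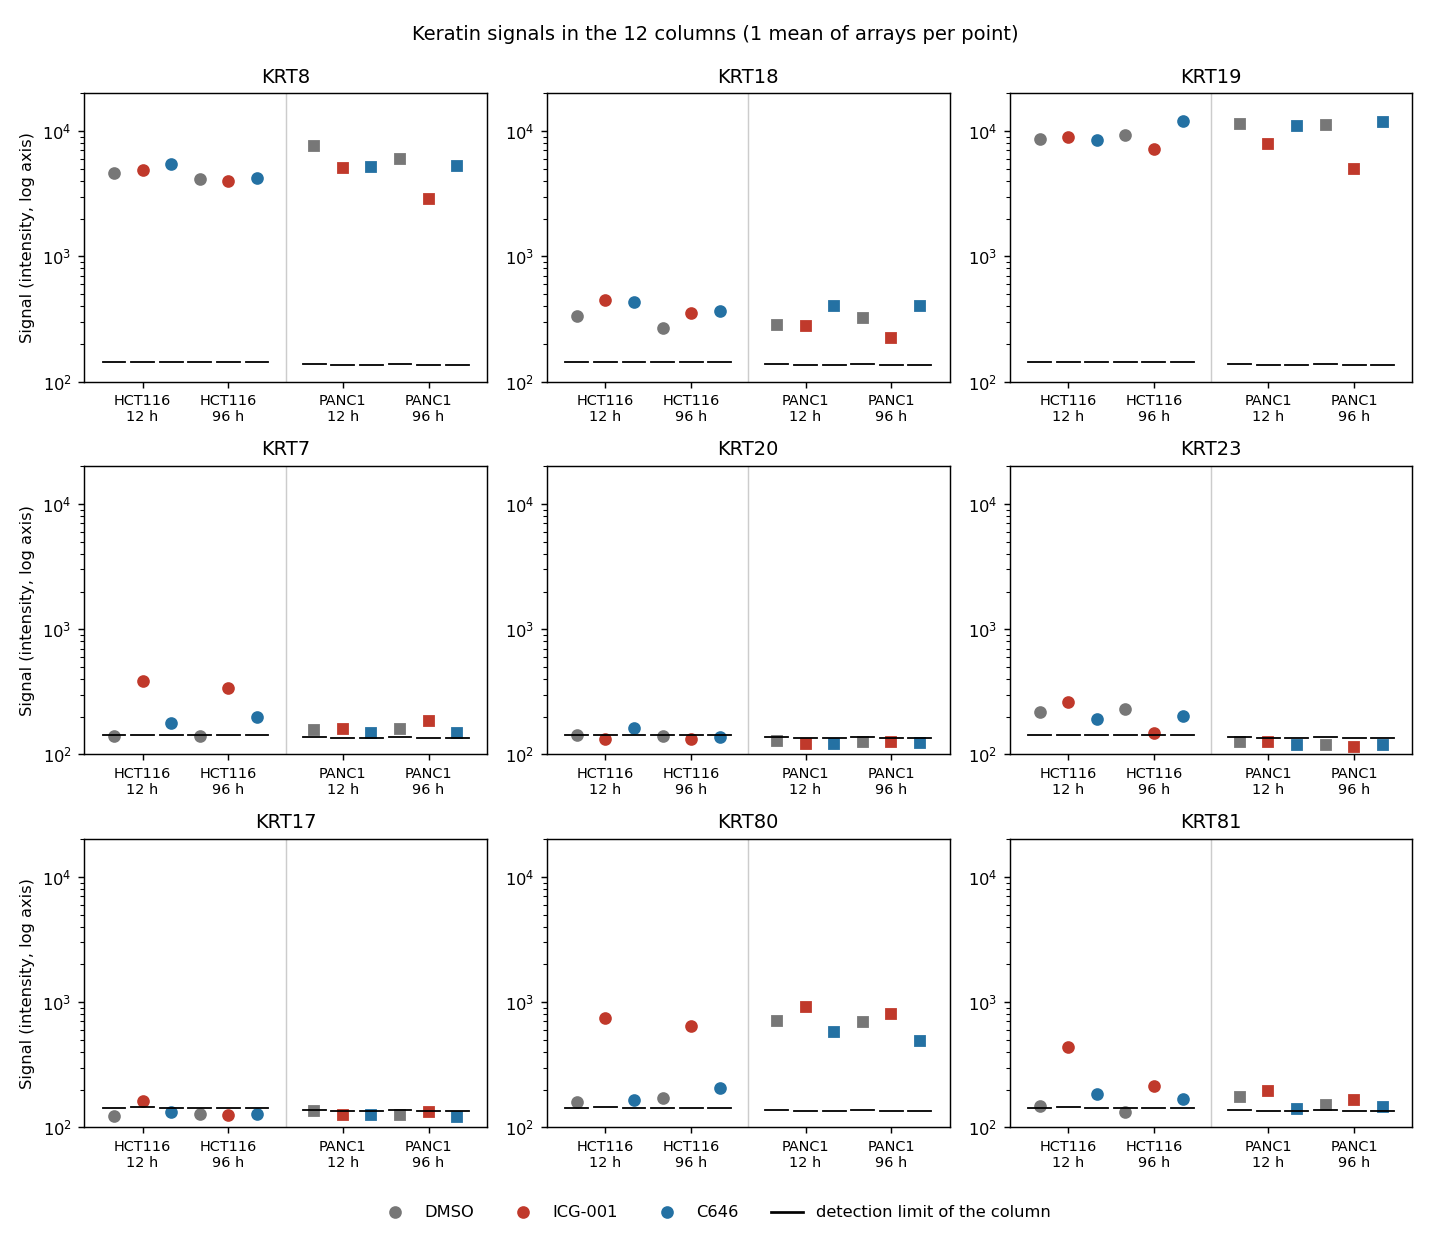
Signal of each keratin (intensity, log axis) in the 12 columns, with circles for HCT116, squares for PANC1, colours for treatment and a black bar at the detection limit of each column. Among the HCT116 columns KRT7, KRT80 and KRT81 stand highest with ICG-001, and among the PANC1 columns KRT8 and KRT19 stand lowest with ICG-001 at 96 h.

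Different keratins passed 1.5-fold with ICG-001 in each line, and the difference between the lines was not tested. At 96 h with ICG-001, 10.2% of all genes changed in HCT116 and 7.37% in PANC1. How many of all genes changed in both lines was not counted, so the lack of overlap is not read as particular to keratins. In HCT116, KRT80, KRT7 and KRT81 rose with ICG-001 at both times, by up to 4.70-fold, and KRT23 fell at 96 h. In PANC1, those 3 genes did not pass 1.5-fold, and KRT8 and KRT19 fell by 2.08-fold and 2.25-fold at 96 h. With C646 no member passed 1.5-fold against DMSO in either line at either time. The 2 drug columns of a line and time were set against the same DMSO column. In bulk RNA, fewer cells that make a transcript and less of it per cell cannot be told apart.

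In HCT116 with ICG-001, 3 of 8 members that entered changed at 12 h, all higher, where 8.95% of 17086 genes changed, and 4 of 7 changed at 96 h, where 10.2% of 17167 genes did. KRT7, KRT80 and KRT81 were higher at both times, as were 2.59% of 15772 genes. The median log2 ratio of the members that entered was 0.40 at 12 h and 0.41 at 96 h, beside 0.0003 and 0.005 over all genes that entered. With C646 in HCT116 the counts were 0 of 8 at 12 h and 0 of 7 at 96 h, where 4.08% and 3.12% of genes changed, and the medians were 0.22 and 0.34. The 3 keratins that rose are all type II keratins, a type with 4 members here.

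In PANC1, 6 members entered each comparison. With ICG-001 the count was 0 at 12 h, where 2.49% of genes changed, and 2 at 96 h, both lower, where 7.37% of genes did. With C646 it was 0 at both times, beside 6.64% and 3.99% of genes. The members' median log2 ratio at 12 and 96 h was 0.0005 and -0.19 for ICG-001, and -0.19 and -0.08 for C646.

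**Figure D2:**
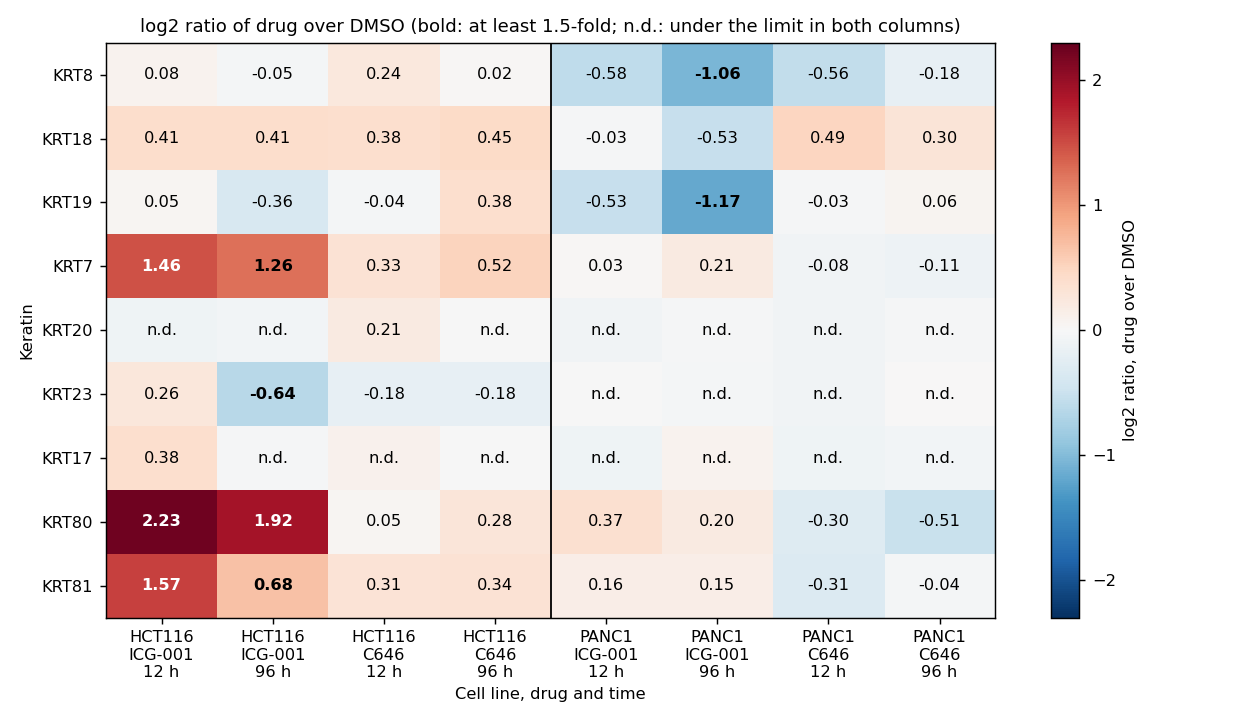
The log2 ratio of drug over DMSO for each keratin (rows) in each line, drug and time (columns), in bold at 1.5-fold or more and with n.d. where both signals were under the limit. The largest values are 2.23 for KRT80 in HCT116 with ICG-001 at 12 h and -1.17 for KRT19 in PANC1 with ICG-001 at 96 h.

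KRT8 is the type II partner in the founding pair of simple epithelia. The KRT8 signal in HCT116 was 4653 and 4162 in DMSO at 12 and 96 h, 4934 and 4030 under ICG-001, and 5490 and 4218 under C646. In PANC1 it was 7608 and 6010 in DMSO, 5080 and 2892 under ICG-001, and 5159 and 5290 under C646. KRT8 thus stayed within 1.36-fold over the 6 HCT116 columns and spanned 2.63-fold over the 6 PANC1 columns, all 4 PANC1 drug columns lying below both DMSO columns. Against DMSO of the same time, the log2 ratios of KRT8 in PANC1 were -0.58 and -1.06 for ICG-001, and -0.56 and -0.18 for C646, and only the 96 h value with ICG-001 passed 1.5-fold. The 12 h value with ICG-001 lay just under that threshold. It passed after background correction, which gave -0.60, and after quantile normalization over all 12 columns. The 12 h value with C646 passed after that quantile normalization but not after background correction, which gave -0.56.

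KRT18, the type I partner of KRT8, did not pass 1.5-fold against DMSO in any comparison. Its HCT116 signal was 334.3 and 268.1 in DMSO, 443.9 and 355.2 under ICG-001, and 435.2 and 365.3 under C646. Each drug column thus lay above both DMSO columns, with log2 ratios of 0.38 to 0.45. In PANC1 its signal was 284.4 and 323.0 in DMSO, 279.3 and 223.6 under ICG-001, and 399.4 and 397.8 under C646. The PANC1 columns with C646 were the highest at both times, at log2 ratios of 0.49 and 0.30 to DMSO, and ICG-001 stood at -0.03 at 12 h and -0.53 at 96 h. After normexp background correction with quantile normalization, which removes background from dim signals, the KRT18 ratio passed 1.5-fold in 4 comparisons. These were HCT116 at 96 h with ICG-001 (0.60) and with C646 (0.66), PANC1 with ICG-001 at 96 h (-0.78) and PANC1 with C646 at 12 h (0.67).

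The table also held rows of pseudogenes of these keratins, copies in the genome whose sequence resembles the parent messenger RNA, and a probe on such a row may read the parent transcript. These rows were looked at after the values were seen, and which transcript each row reads was not tested. Of 18 rows that RefSeq names as KRT18 pseudogenes, 6 were above the limit in all 12 columns, namely KRT18P13, KRT18P17, KRT18P28, KRT18P31, KRT18P48 and KRT18P59. In HCT116, 5 of these 6 rose with ICG-001 at 12 h and 5 at 96 h, with medians of 0.82 and 0.62 on the log2 scale. Of all genes, 4.81% and 5.11% rose there. With C646, 5 and 3 rose, with medians of 0.72 and 0.64, beside 2.57% and 1.9% of all genes. Rows that may read the same parent transcript are not separate counts. In PANC1 with ICG-001 the 6 rows ran from -0.41 to -0.27 at 12 h. All 6 fell at 96 h, from -1.12 to -0.77, where 3.54% of all genes fell. The brightest of them, KRT18P31, had a signal from 10680 to 17340 over the HCT116 columns and from 11570 to 21270 over the PANC1 columns. The pseudogene rows and the KRT18 row thus had the same sign in HCT116 with both drugs and in PANC1 with ICG-001. In PANC1 with C646 none passed 1.5-fold. There KRT18P31 stood at -0.16 and -0.17 at 12 and 96 h, against 0.49 and 0.30 for the KRT18 row. The other pseudogene rows ran from 0.05 to 0.42 over both times.

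For KRT8, 3 of 6 pseudogene rows were above the limit in all 12 columns, namely KRT8P9, KRT8P45 and KRT8P47. A further row, KRT8P44, was above the limit in all 6 PANC1 columns but not in all HCT116 columns, and in PANC1 it stood at -0.03 and -0.17 with ICG-001 at 12 and 96 h and at -0.09 and -0.11 with C646. In PANC1 all 3 of the first rows fell with ICG-001, from -0.77 to -0.70 at 12 h and from -1.32 to -1.21 at 96 h. They also fell with C646 at 12 h, from -0.98 to -0.77. In the same order, 0.333%, 3.54% and 2.68% of all genes fell, and the 3 rows may read the same parent transcript. With C646 at 96 h these rows ran from -0.46 to -0.11, and in HCT116 none passed 1.5-fold. At 12 h these rows passed where the KRT8 row itself stood at -0.58 and -0.56. In DMSO, PANC1 values at 96 h were lower than at 12 h by 0.34 for KRT8. The 3 rows ran from -0.66 to -0.56 there with 1 past 1.5-fold, where 0.331% of all genes fell.

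**Figure D3:**
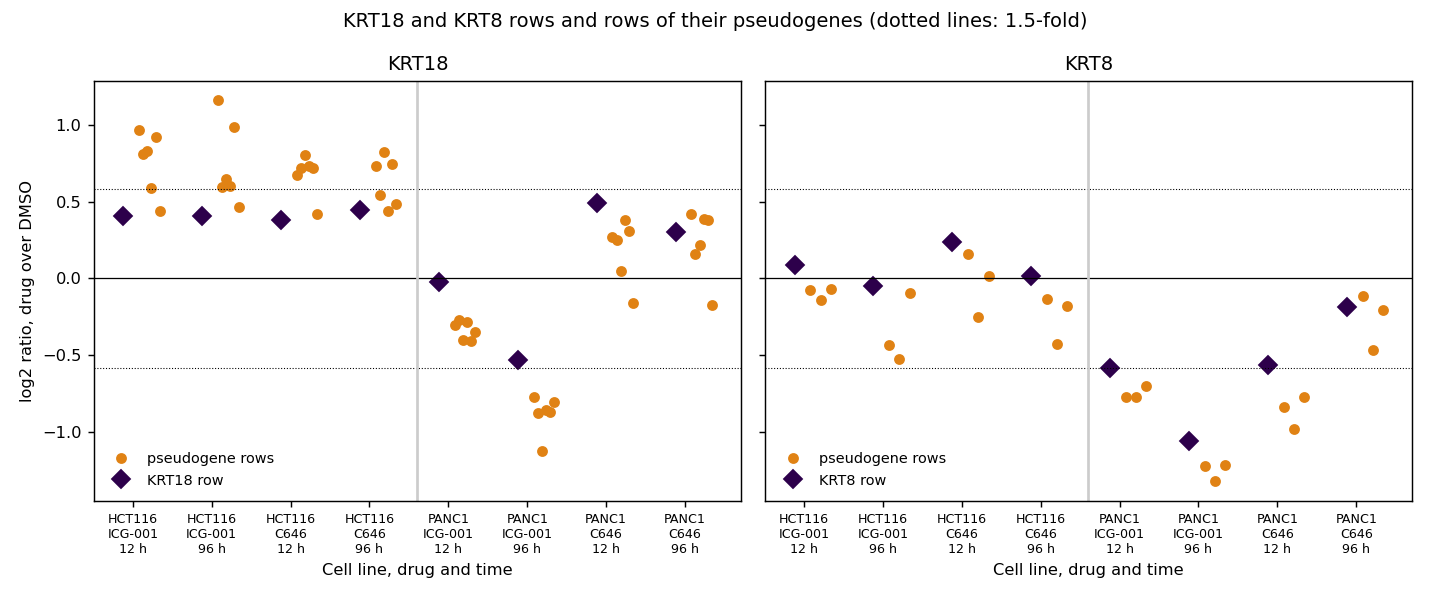
The log2 ratio of drug over DMSO for the KRT18 and KRT8 rows (diamonds) and for rows of their pseudogenes (circles) in each line, drug and time, with dotted lines at 1.5-fold. The 6 KRT18 pseudogene rows lie between 0.42 and 1.16 in HCT116, and with ICG-001 at 96 h in PANC1 they lie between -1.12 and -0.77.

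KRT19, the smallest keratin and a type I keratin of ducts and gut, had the largest fall of any member against DMSO. Its PANC1 signal was 11330 and 11270 in DMSO at 12 and 96 h, 7857 and 5006 under ICG-001, and 11060 and 11750 under C646. The DMSO and C646 columns lay close together and both ICG-001 columns lay below them, at log2 ratios of -0.53 and -1.17. In HCT116 the signal was 8719 and 9243 in DMSO, 9041 and 7198 under ICG-001, and 8481 and 12030 under C646. The HCT116 values at 96 h stood on either side of DMSO, -0.36 with ICG-001 and 0.38 with C646, neither past 1.5-fold. Over the 6 PANC1 columns, which share controls and normalization, the line-centred log2 signals of KRT8 and KRT19 had a Pearson's r of 0.88, and over the 6 HCT116 columns r was -0.09.

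KRT7, the type II keratin of ducts and glands, was at or under the limit in HCT116 in DMSO, at 141.5 and 140.0. It read 388.8 and 336.4 with ICG-001 at 12 and 96 h and 177.7 and 200.1 with C646. KRT7 was at least 2.72-fold higher with ICG-001 at 12 h and at least 2.35-fold higher at 96 h. With C646 its log2 ratio was 0.33 and 0.52, under 1.5-fold. In PANC1 its signal ran from 147.9 with C646 at 96 h to 185.2 with ICG-001 at 96 h, and was 157.8 and 159.8 in DMSO.

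KRT80, a type II keratin linked to epithelial differentiation, had the largest rise of any member. Its HCT116 signal was 160.2 and 170.5 in DMSO, 752.4 and 647.4 under ICG-001, and 165.4 and 207.4 under C646. The ICG-001 columns lay 4.70-fold and 3.80-fold above DMSO, and the C646 columns at log2 ratios of 0.05 and 0.28. PANC1 gave 703.5 and 698.4 in DMSO, 908.6 and 804.1 under ICG-001, and 573.0 and 490.4 under C646. Here no ratio to DMSO passed 1.5-fold, although the order was the same at both times, with ICG-001 above DMSO (0.37 and 0.20) and C646 below it (-0.30 and -0.51).

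KRT81, a type II hair keratin that cancer lines can also make, gave 147.9 and 133.5 in DMSO in HCT116, 440.2 and 213.8 under ICG-001, and 183.5 and 168.6 under C646. It was 2.98-fold higher with ICG-001 at 12 h. At 96 h the ratio of the signals was 1.60-fold and the bound against the limit was at least 1.49-fold. In PANC1 it ran from 141.2 with C646 at 12 h to 195.8 with ICG-001 at 12 h. KRT81 has the near-identical relatives KRT83 and KRT86, and in RefSeq GRCh38.p14 it overlaps KRT86, so its signal may be shared with them. KRT83 was under the limit in 6 of 6 HCT116 columns.

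Background left in the signal shrinks the folds of such dim genes. After normexp correction, the HCT116 folds with ICG-001 at 12 and 96 h were 10.1 and 7.53 for KRT80, 6.39 and 5.34 for KRT7 and 6.55 and 3.09 for KRT81. With C646 in HCT116, KRT7 then passed 1.5-fold at 12 h (1.80-fold) and 96 h (2.31-fold), as did KRT81 (1.68-fold and 1.89-fold). With C646 in PANC1, KRT81 was then 1.72-fold lower at 12 h and KRT80 1.52-fold lower at 96 h.

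KRT80, KRT7 and KRT81 also lie near each other. In the order of RefSeq GRCh38.p14, 28 rows of the table belong to the keratin cluster of chromosome 12, which holds the type II keratins and KRT18. It begins with KRT80, KRT7, KRT86 and KRT81, and it ends with KRT8 and KRT18. The rows of these first 4 names rose with ICG-001 at 12 h in HCT116, KRT86 by at least 1.55-fold, from 133.2 to 221.9. KRT86 read 139.7 in DMSO and 199.0 with ICG-001 at 96 h, a bound of 1.39-fold. A second row of KRT86, under its older name KRTHB6 and outside the 28, was above the limit in 1 of 6 HCT116 columns and stood at log2 ratios of 0.18 and 0.13 with ICG-001 at 12 and 96 h. Of the 22 rows between KRT81 and KRT8, 2 were above the limit in any HCT116 column. These were KRT6A and KRT126P, with log2 ratios of 0.09 and -0.04 for ICG-001 at 12 h. The cluster was looked at after the values were seen, and most of its middle genes could not be read, so no count over the cluster is drawn from it.

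**Figure D4:**
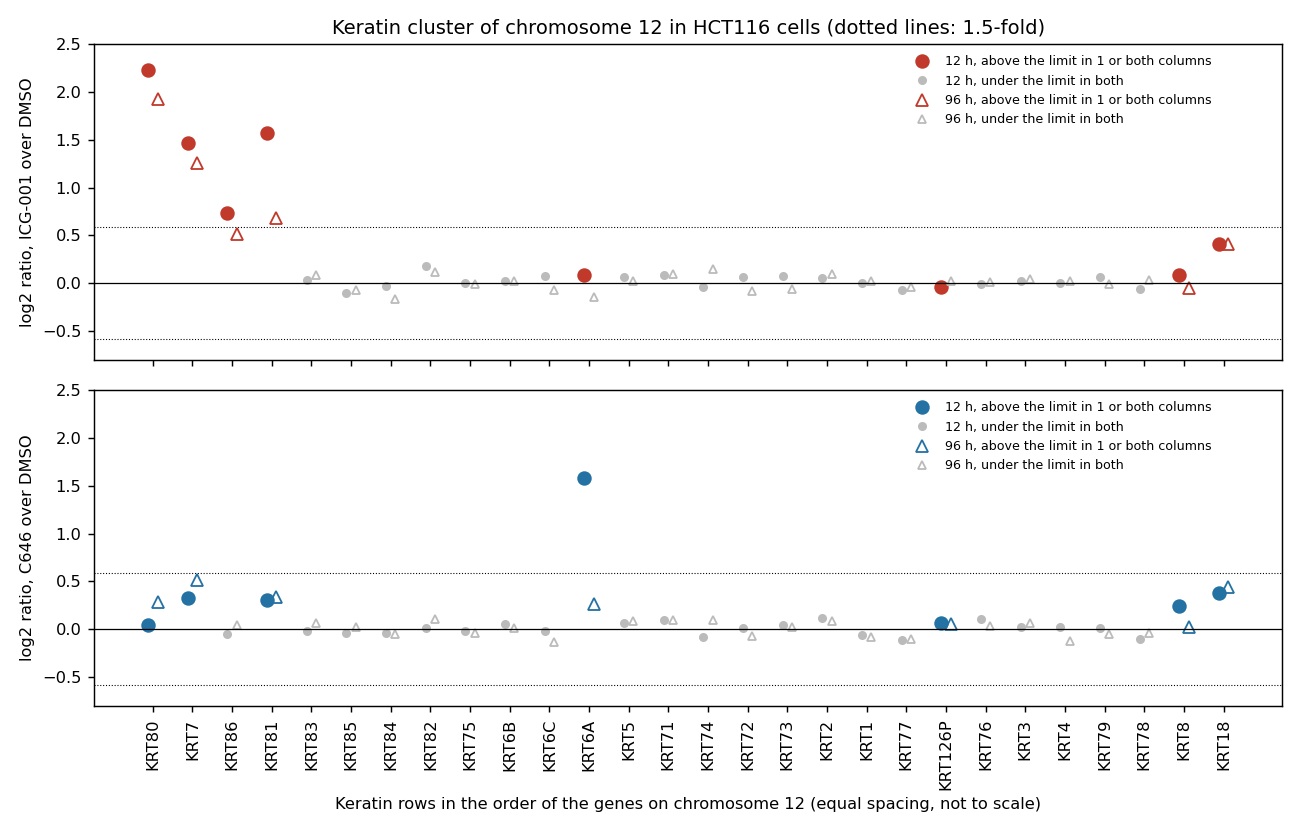
The log2 ratio of ICG-001 (top) and C646 (bottom) over DMSO in HCT116 for 28 keratin rows in their order along chromosome 12, at even spacing, with grey points for genes under the limit in both columns. With ICG-001 the points past 1.5-fold are KRT80, KRT7, KRT86 and KRT81 at one end, and with C646 the only point past it is KRT6A at 12 h.

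KRT23, KRT20 and KRT17 were dim. KRT23, a type I keratin of gut and other epithelia, read 219.0 and 230.3 in DMSO in HCT116, 261.4 and 147.9 under ICG-001 and 192.7 and 202.5 under C646. It fell by 1.56-fold with ICG-001 at 96 h, to a signal just above the limit of 143.2, and after normexp correction the log2 ratio was -1.36. In PANC1 KRT23 was under the limit throughout, at 115.5 to 125.9. KRT20, the marker of differentiated gut cells, read 141.9 in DMSO and 163.7 with C646 at 12 h in HCT116, and was under the limit in the other 11 columns, where its signal was 120.2 to 141.9. KRT17, a type I keratin of basal cells, read 124.0 in DMSO and 161.8 with ICG-001 at 12 h in HCT116, its only column above the limit. Neither passed 1.5-fold as deposited, and KRT17 in that column passed it after normexp correction (2.35-fold). The row of its pseudogene KRT17P3, above the limit in all 12 columns, stood at a log2 ratio of 0.18 there. In the columns under the limit the arrays could not show whether lower levels were present.

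Set against C646, ICG-001 gave 3 higher members of 9 in HCT116 at 12 h, where 6.23% of genes changed. These were KRT80 (4.55-fold), KRT81 (2.40-fold) and KRT7 (2.19-fold). At 96 h 3 of 7 changed, beside 6.52% of genes, with KRT80 (3.12-fold) and KRT7 (1.68-fold) higher and KRT19 (1.67-fold) lower. In PANC1 at 12 h, 1 of 6 changed, beside 2.48% of genes, which was KRT80, higher by 1.59-fold. At 96 h 4 of 6 changed, beside 6.74% of genes. KRT80 was 1.64-fold higher, and KRT19, KRT8 and KRT18 were lower by 2.35-fold, 1.83-fold and 1.78-fold. KRT80 was the member that lay higher with ICG-001 than with C646 by 1.5-fold or more in all 4 of these comparisons.

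No member changed with time in DMSO. Between 12 and 96 h in DMSO, 0 of 6 members changed in HCT116 and 0 of 6 in PANC1, where 3.09% and 1.31% of genes did, and the largest log2 differences were -0.32 for KRT18 in HCT116 and -0.34 for KRT8 in PANC1. With ICG-001, 2 of 8 changed in HCT116, beside 6.83% of genes. These were KRT81 and KRT23, which were 2.06-fold and 1.77-fold lower at 96 h than at 12 h. In PANC1, 2 of 6 changed, beside 3.93% of genes, with KRT8 and KRT19 lower at 96 h by 1.76-fold and 1.57-fold. With C646 the counts were 0 of 8 in HCT116 and 0 of 6 in PANC1, beside 7.06% and 0.477% of genes. KRT80 and KRT7 in HCT116 held most of their level in ICG-001, at 96 h over 12 h log2 ratios of -0.22 and -0.21.

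The DMSO columns of the lines, which were normalized apart, differed in 3 of 7 members at 12 h, where 23.3% of genes did, and in 2 of 7 at 96 h, beside 25.6% of genes. KRT80 was 4.39-fold and 4.10-fold higher in PANC1, and KRT23 was at least 1.60-fold and 1.67-fold lower. KRT8 was 1.64-fold higher in PANC1 at 12 h and 1.44-fold at 96 h. After quantile normalization over all 12 columns, the log2 difference was 2.15 and 2.03 for KRT80 and 0.82 and 0.58 for KRT8. KRT19 passed 1.5-fold on that scale at 12 h, moving from 0.38 to 0.64, and stood at 0.52 at 96 h. On that common scale, KRT80 in HCT116 with ICG-001 stood at log2 differences of 0.15 and -0.03 from PANC1 in DMSO, at 12 and 96 h. KRT7 in HCT116 with ICG-001 stood above PANC1 in DMSO by 1.30 and 1.06 and KRT81 by 1.32 and 0.46.

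Over the 12 columns, with log2 signals centred in each line, KRT7 and KRT80 had a Pearson's r of 0.95, KRT7 and KRT81 of 0.86 and KRT80 and KRT81 of 0.84. In the same order, r was 0.97, 0.88 and 0.84 within HCT116 and 0.70, 0.43 and 0.845 within PANC1. The 12 columns share controls and normalization, and r is given as a description. Among 17244 genes searched, the rows most like KRT80 were GFPT1 (r of 0.97), DAP (0.96) and MGC102966 (0.96), and MGC102966 (0.97) was also most like KRT7, followed by ZSCAN12L1 (0.96) and UPP1 (0.95). Those most like KRT81 were RPL23AP53 (0.98), USP25 (0.96) and PVR (0.95). For KRT8 they were 2 rows of its own pseudogenes, KRT8P47 (0.98) and KRT8P9 (0.97), and EXOC5 (0.97). For KRT19 they were KIAA1333, now named G2E3 (0.94), NUDCD2 (0.94) and CANX (0.94).

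Genes that anchor keratin filaments were counted in the same way. Of 14 desmosome genes, 7 to 9 entered a comparison with DMSO, 0 or 1 fell in each and none rose, which was 1 of 9 in HCT116 with ICG-001 at either time, beside the 8.95% and 10.2% of all genes. JUP, plakoglobin, which binds desmosomal cadherins, fell in HCT116 with ICG-001 at 96 h from 1186 to 638.8 (1.86-fold), with C646 at 12 h (1.66-fold), and in PANC1 with ICG-001 at 96 h (1.62-fold). DSC2, a desmosomal cadherin, fell by 1.51-fold in HCT116 with ICG-001 at 12 h. Of 12 linker and hemidesmosome genes, 10 or 11 entered. With ICG-001 in HCT116, 1 rose at 12 h, and 3 rose and 1 fell at 96 h, 4 of 11 beside 10.2% of all genes. FAM83H, which helps organize keratin filaments, rose by 1.5-fold at 12 h and 1.84-fold at 96 h, and ITGB4, the hemidesmosome integrin, rose at 96 h from 434.5 to 896.0 (2.06-fold). COL17A1, a hemidesmosome collagen named because the count was small, rose at 96 h. PPL, periplakin, fell with ICG-001 at 96 h in HCT116 (1.69-fold) and in PANC1 (1.76-fold). With C646 none of the linkers changed, beside 3.12% to 6.64% of all genes.

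Of 16 other intermediate filament genes, 8 to 10 entered, and with C646 none changed, beside 3.12% to 6.64% of all genes. With ICG-001 in HCT116, PRPH, the neuronal filament peripherin, rose at 12 h from 380.6 to 976.3 (2.57-fold), while NES and LMNB2 fell, as did BFSP1 at 96 h. In PANC1, 3 fell with ICG-001 at 96 h, beside 3.54% of all genes, namely NES (nestin, 1.71-fold), LMNB1 (a nuclear lamin, 1.67-fold) and LMNA.

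Of 49 rows of other keratins, 11 were above the limit in at least 1 HCT116 column and 9 in at least 1 PANC1 column. KRT6A, a keratin of stressed and wounded epithelium, rose in HCT116 with C646 at 12 h from 156.7 to 468.6 (2.99-fold), and with ICG-001 at 12 h it was 166.4. KRT15, a basal keratin, rose in HCT116 with ICG-001 at 12 h from 188.1 to 365.7 (1.94-fold) and with C646 at 96 h (1.56-fold), and fell in PANC1 with ICG-001 at 96 h (1.58-fold). The count of those that changed was 2 of 9 in HCT116 with ICG-001 at 12 h, beside 8.95% of all genes. It was 0 or 1 in each other comparison with DMSO, beside 2.49% to 10.2% of all genes.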

How the data were processed

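Per the study's methods, the authors read Illumina HumanHT-12 v4 arrays in GenomeStudio, applied quantile normalization without background subtraction, and averaged replicate arrays. The deposited table gives linear signal intensity, with 1 row for each gene name. Values of single arrays were not used here. The number of arrays limits the precision. Sorted log2 values differed on average by 0.0037 to 0.0093 between columns of a line and by 0.0628 to 0.0661 between lines.

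From these values, log2 ratios, detection limits (2.33 SD above the background peak, the SD taken from the values below it) and calls at 1.5-fold were computed in Python 3.11.15 (pandas 2.3.3, numpy 2.4.6, scipy 1.17.1, figures in matplotlib 3.10.9). Normexp (offset 16, then quantile normalization within a line) used limma 3.58.1 in R 4.3.3. The calls were run on simulated data with 2-fold changes in genes well above the limit and noise as near background. That run does not check calls on dim genes or the spread between replicates.

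The members and gene lists were chosen with earlier results of these data known. Genes named beyond the 9 members were up to 3 per list with the largest change against DMSO of at least 1.5-fold, the 3 most alike by Pearson's r for members spanning 1 or more log2 units in a line, and a few named for small counts. A gene that this rule named is not reported here. Names were matched to RefSeq GRCh38.p14 by symbol, older symbol or gene identifier. Alternatives were thresholds of 1.2-fold and 2-fold, no filter, a limit at 5 SD, normexp, median centring, quantile normalization over 12 columns, the DMSO column of the other time, and Spearman's rho for like genes.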

Additional observations from a re-analysis of the deposited data

Results flagged for a closer look

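Among 6 members above the limit in both lines, C646 moved 4 in opposite directions in the lines at both times. All 4 were higher in HCT116 and lower in PANC1. Opposite directions, whichever line was higher, were seen in 10.2% of 17245 genes. The share with HCT116 higher was not counted apart. The mean log2 change in HCT116 minus that in PANC1 was 0.567 for KRT80, 0.516 for KRT7, 0.502 for KRT81 and 0.501 for KRT8. Within lines, these changes were from 0.02 (KRT8) to 0.52 (KRT7) in HCT116 and from -0.56 (KRT8) to -0.04 (KRT81) in PANC1, and none passed 1.5-fold. In HCT116, KRT7 was under the limit in both DMSO columns and KRT81 in DMSO at 96 h, so these differences are set against signals not above background. With ICG-001, 1 of 6 members moved in opposite directions, KRT18, at a difference of 0.686, as did 10.3% of genes, whichever line was higher. KRT18 was at 0.41 and 0.41 in HCT116 and at -0.03 and -0.53 in PANC1. The differences between lines were not tested, and the values of KRT8 (0.02), KRT80 (0.05), KRT81 (-0.04) and KRT18 (-0.03) nearest to 0 lie within 1 SD of the ratios of genes near background.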

How the results depend on the processing

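All 20 ratios of members past 1.5-fold against DMSO or between drugs kept their sign in 89 recomputed values, and 2 fell under 1.5-fold. The 2 that fell under it were KRT81 (0.53) and KRT23 (-0.57) in HCT116 with ICG-001 at 96 h, set against DMSO at 12 h. That left 2 keratins changed, beside 11.5% of all genes. Single ratios over time were recomputed with normexp alone. With no filter, a limit at 5 SD or median centring the counts of keratins changed stayed within 1.5 times in 14 of 14 comparisons. These settings could hardly move a count, so this is no check of the calls. The filter and the limit leave each log2 ratio as it was, and centring subtracted a median of at most 0.0124 in size. Of the 89 values, 20 came from the limit at 5 SD and 20 from median centring, and their kept signs add little.

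At 1.2-fold the counts, of 6 to 9 members that entered, became 5 (HCT116 ICG-001 12 h), 3 and 5 (HCT116 C646 12 and 96 h), 3 (PANC1 ICG-001 12 h), 4 and 2 (PANC1 C646), 6 and 5 (HCT116 ICG-001 over C646), 4 (PANC1 ICG-001 over C646 12 h), and 1 and 1 for DMSO over time. In the same order, the shares of all genes were 32.3%, 21.6%, 19.7%, 16.9%, 26.5%, 21.3%, 27.9%, 27.4%, 18.1%, 21.8% and 15.3%. At 2-fold the counts became 2 (HCT116 ICG-001 96 h), 1 (HCT116 ICG-001 over C646 96 h), and 0 and 1 (PANC1 ICG-001 over C646 12 and 96 h). The shares of all genes were 2.14%, 1.4%, 0.225% and 1.38%. With normexp they became 2 and 3 (HCT116 C646), 1 (PANC1 ICG-001 12 h), 2 and 1 (PANC1 C646), 6 and 5 (HCT116 ICG-001 over C646), and 3 (PANC1 ICG-001 over C646 12 h). Quantile normalization over 12 columns gave 1, KRT8, in PANC1 at 12 h with either drug, beside 2.41% of all genes with ICG-001 and 6.55% with C646. DMSO of 96 h gave 1, KRT18, for HCT116 C646 at 12 h, beside 11.4% of all genes. By Spearman's rho, 2 of the 3 like genes of KRT80, 1 of KRT8 and 0 of KRT7, KRT19 and KRT81 remained. The cause of these shifts was not tested beyond what each setting does by construction. No paired analysis was possible because each group had 1 column, and leaving out a replicate was not possible for the same reason.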

Other observations

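Genes of epithelial junctions and the cell surface were read beside the keratins, 18 rows of which 13 to 15 entered a comparison with DMSO. CLDN7, a tight junction claudin, rose in HCT116 with ICG-001 by 1.98-fold and 2.10-fold and was at log2 ratios of 0.03 and 0.45 with C646. CLDN1, another claudin, rose in PANC1 with ICG-001 from 845.8 to 1678 at 12 h and from 898.7 to 1971 at 96 h, and was at -0.18 and -0.45 with C646. In PANC1 with ICG-001 at 96 h, the rows EPCAM and TACSTD1, an older name of EPCAM, both fell, and MUC1 rose, all named because the count was small. With C646 in PANC1 none changed, beside 6.64% and 3.99% of all genes at 12 and 96 h.

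Of 26 epithelial transcription and splicing factors, 15 to 19 entered. SOX9, a factor of ducts and intestinal crypts, fell with C646 in HCT116 (2.65-fold and 1.63-fold) and in PANC1 (1.95-fold and 1.84-fold), and with ICG-001 it was at log2 ratios of -0.55 to 0.06. FOSL1, an AP-1 subunit, rose with ICG-001 in HCT116 from 391.7 to 859.8 at 12 h and from 361.4 to 647.4 at 96 h. In PANC1 it fell with C646 by 2.38-fold and 2.47-fold and with ICG-001 at 96 h by 1.79-fold. EHF, an ETS factor of epithelia, fell in HCT116 with C646 at both times (2.12-fold and 1.55-fold) and with ICG-001 at 96 h (1.61-fold). At 12 and 96 h, 5 and 5 of these factors changed in HCT116 for ICG-001, beside 8.95% and 10.2% of all genes. For C646 the counts in HCT116 were 3 and 2, beside 4.08% and 3.12%. In PANC1 the counts were 1 and 1 for ICG-001, beside 2.49% and 7.37%, and 3 and 3 for C646, beside 6.64% and 3.99%.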
